A study of Homo sapiens with 8 samples.

Results

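The SLC25 family holds the mitochondrial carriers, small membrane proteins that move metabolites, nucleotides, cofactors and ions across the inner mitochondrial membrane. Its members were taken as every gene of the deposited count table whose symbol is SLC25A followed by a number only, which gave 46 members of 16829 genes. They were followed in 2 human colorectal cancer cell lines, RKO, a microsatellite-unstable line, and SW480, a line with truncated APC. The RKO comparison was CYP1B1 overexpression, delivered by lentivirus, over control. The SW480 comparison was knockdown of CYP1B1 by a short hairpin RNA, shCYP1B1, over the non-targeting hairpin shNT. Each of these 4 groups had 2 libraries. CYP1B1 is a cytochrome P450 enzyme that oxidises oestrogens and polycyclic aromatic compounds. All cells grew in the same serum-containing medium, and the labels name a single hairpin, do not say what the RKO control virus held and do not say whether a line was a clone or a pool.

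Charged solutes hardly cross the inner membrane without a transport protein. Each carrier lets its own substrate pass between the matrix and the cytosol, often by exchanging it for another. The ADP/ATP carriers export the ATP made by oxidative phosphorylation and the phosphate carrier brings in the phosphate it needs. The citrate, malate, aspartate and glutamate carriers link the tricarboxylic acid cycle to cytosolic lipid synthesis and to the malate-aspartate shuttle, and the mitoferrins bring in the iron for haem and iron-sulphur clusters. Most carriers are made in the cytosol and reach the inner membrane through the TOM complex, the small TIM chaperones and the TIM22 translocase.

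The 8 libraries held between 31550173 and 34921085 counts. CYP1B1 had 437 and 519 normalised CPM in RKO overexpression libraries, against 0.686 and 0.701 in RKO controls, and 0.367 and 0.301 normalised CPM in SW480 shCYP1B1 libraries, against 1.44 and 2.20 in shNT libraries, so both manipulations went in the labelled direction (log2 fold change 9.42, SE 0.176, edgeR adjusted p = 7.93e-11 in RKO; log2 fold change -2.44, SE 0.310, edgeR adjusted p = 6.43e-05 in SW480). Normalised CPM are counts over the library total scaled with TMM factors (CPM). Whether replicates were separate cultures is not stated, so the tests see only how far these libraries spread, which may be technical. The 2 overexpression libraries stood further apart than the libraries of the other groups: their counts differed by a chi-square of 42.7 per gene, against 4.65 to 6.53 in the other groups, and the median difference between replicates over the tested SLC25A members was 0.141 on the log2 scale, against 0.0776 to 0.0936. Of 9 colorectal epithelial markers, 4 exceeded 1 FPKM in both RKO groups, where CDH1, KRT19, KRT20, VIL1 and LGALS4 were at or near 0, and 6 did with shCYP1B1, against 7 with shNT. Their summed level was 167 to 177 FPKM with overexpression and 154 to 159 FPKM in RKO controls, and 3260 to 3280 FPKM with shCYP1B1 and 3020 to 3130 FPKM with shNT. Of 9 stromal, endothelial and immune markers, 2 exceeded 1 FPKM in each RKO group and 3 in each SW480 group, with sums of 4.09 to 5.44 FPKM with overexpression, 3.91 to 5.74 FPKM in RKO controls, 17.2 to 17.7 FPKM with shCYP1B1 and 12.3 to 13.5 FPKM with shNT. The epithelial markers went both ways in SW480. KRT8 (1227 and 1224 FPKM with shCYP1B1, against 1067 and 1039 with shNT), KRT18 (1827 and 1866, against 1611 and 1548) and CDH1 (1.99 and 1.79, against 1.23 and 1.36) were higher with shCYP1B1, whereas EPCAM (14.1 and 14.6, against 84.0 and 84.7), KRT19 (179 and 168, against 349 and 328), CDX2 (9.57 and 9.56, against 18.6 and 17.3) and VIL1 (0.223 and 0.152, against 1.85 and 1.67) were lower, and KRT20 and LGALS4 were under 1 FPKM in every library. The part of these markers in the results below was not tested.

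Per unit of length, a few housekeeping carriers made up most of the family's signal in every library. SLC25A5, the main ADP/ATP carrier of dividing cells, was the highest in all 4 groups, with 363 and 353 FPKM with overexpression, 286 and 275 in RKO controls, 367 and 362 with shCYP1B1 and 407 and 401 with shNT. SLC25A39, which is needed for mitochondrial glutathione import, came next in all 4 groups, at 242 and 231 FPKM with overexpression, 189 and 193 in RKO controls, 179 and 184 with shCYP1B1 and 204 and 194 with shNT. The ranges of these first 2 carriers did not overlap in any group. The third place was held by SLC25A3, the phosphate carrier, in 3 groups and by SLC25A1, the citrate carrier, with shCYP1B1, where their ranges were close (52.6 and 51.3 FPKM for SLC25A1 and 50.4 and 49.8 FPKM for SLC25A3). Together SLC25A5, SLC25A39 and SLC25A3 gave 57.0% and 57.1% of the family's summed FPKM with overexpression and 54.1% and 53.6% in RKO controls, and 58.4% and 59.0% with shCYP1B1 and 61.8% and 61.0% with shNT. These levels depend on the gene length the authors used, which the ratio of counts to FPKM shows to be 1307 bp for SLC25A5 and 6109 bp for SLC25A3. Averaged over the 8 libraries, 2 members exceeded 100 FPKM, 19 lay between 10 and 100, 17 between 1 and 10, and 8 were under 1 FPKM. The members under 1 FPKM were SLC25A53, SLC25A41, SLC25A21, SLC25A6, SLC25A34, SLC25A2, SLC25A52 and SLC25A18.

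**Figure D1:**
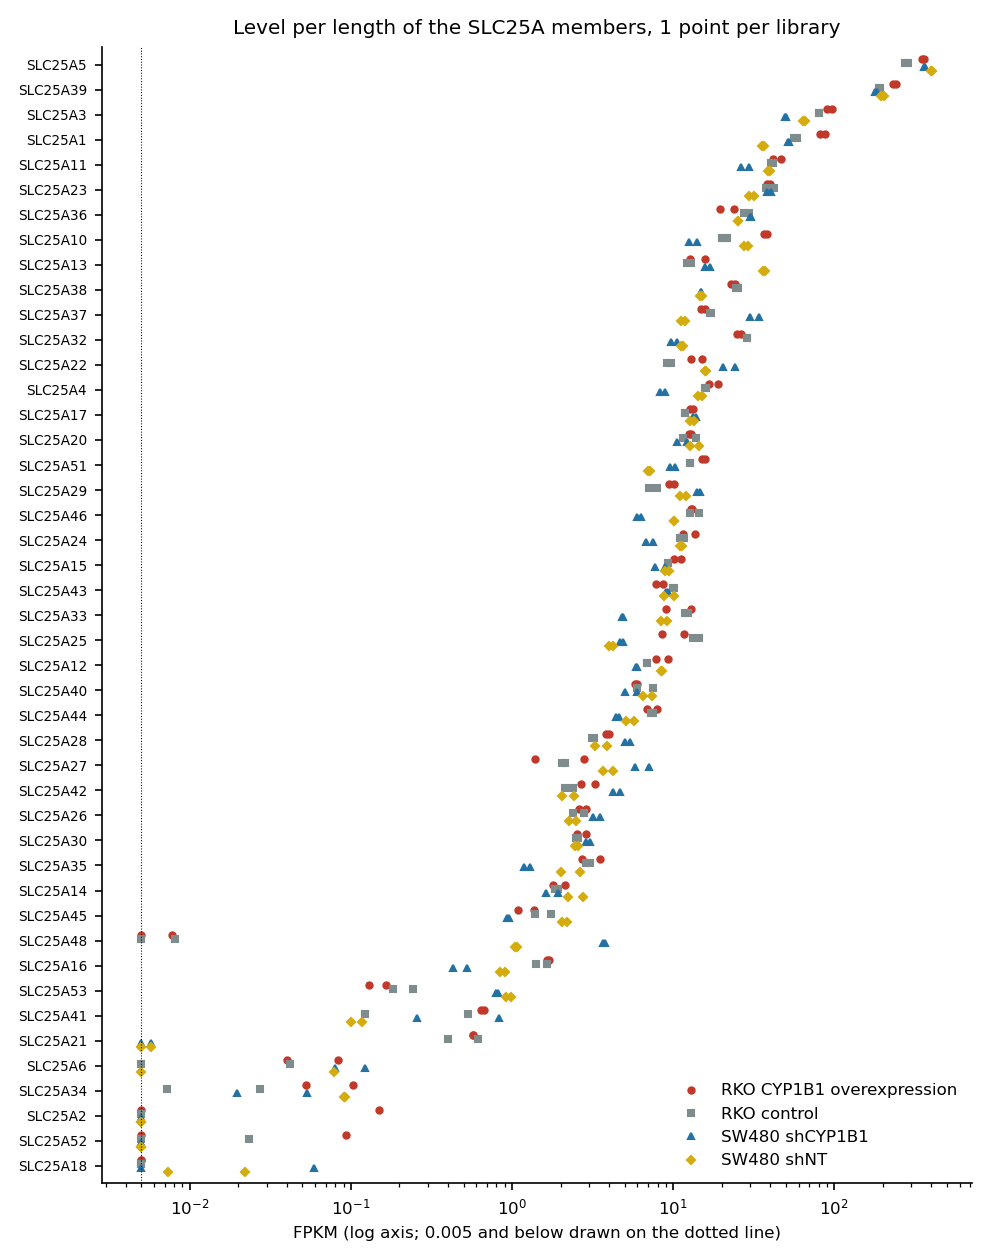
Deposited FPKM of 45 of the 46 SLC25A members on a log axis, with 1 point per library and members ordered by their mean over the 8 libraries. SLC25A5 and SLC25A39 lie above 100 FPKM in every library, SLC25A48 lies at or near 0 in RKO, and SLC25A21 lies at or near 0 in SW480.

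In both lines the family moved in both directions rather than as a block. Of the 46 members, 42 had enough counts to be tested. SLC25A2, SLC25A6, SLC25A18 and SLC25A52 had 8 counts or fewer in every library and were not. In RKO, 8 members rose and 2 fell with overexpression at an adjusted p under 0.05, or 19.0% and 4.76%, against 13.8% and 13.8% of all 14157 tested genes. None of these 10 moved by more than 2-fold, while 94 risers and 219 fallers did among all 14157 tested genes. The median member had a log2 fold change of 0.12, against 0 over all genes. In SW480, 14 members rose and 12 fell with shCYP1B1, or 33.3% and 28.6%, against 25.3% and 25.3% of all tested genes. Of those members, 4 rose and 3 fell by more than 2-fold, while 1009 risers and 904 fallers did among all 14157 tested genes. The median member had a log2 fold change of -0.09, against 0.00 over all genes. In these bulk libraries, fewer cells of a type and less RNA per cell cannot be told apart. The members took a larger share of all counts with overexpression, 0.312% and 0.298%, against 0.272% and 0.273% in RKO controls, and a smaller share with shCYP1B1, 0.249% and 0.246%, against 0.265% and 0.263% with shNT. The groups did not overlap in either line. These shares weigh most on SLC25A5, SLC25A3 and SLC25A39, with 124417, 118483 and 86308 counts over the 8 libraries. SLC25A3 alone had 10433 and 10481 counts with shCYP1B1, against 13966 and 13424 with shNT. The smaller share in SW480 is therefore not a fall of the family as a whole. The RKO count ranged from 6 to 14 when each library was left out in turn, and the share of all genes called moved with it. Without RKO control replicate 1 it was 6 (14.3% of members, against 15.5% of all genes), without RKO control replicate 2 it was also 6 (14.3%, against 12.3%), and without RKO CYP1B1 replicate 1 it was 14 (33.3%, against 38.7%). In all 8 libraries 23.8% of members and 27.6% of all genes were called, so the count of members is near the background.

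**Figure D2:**
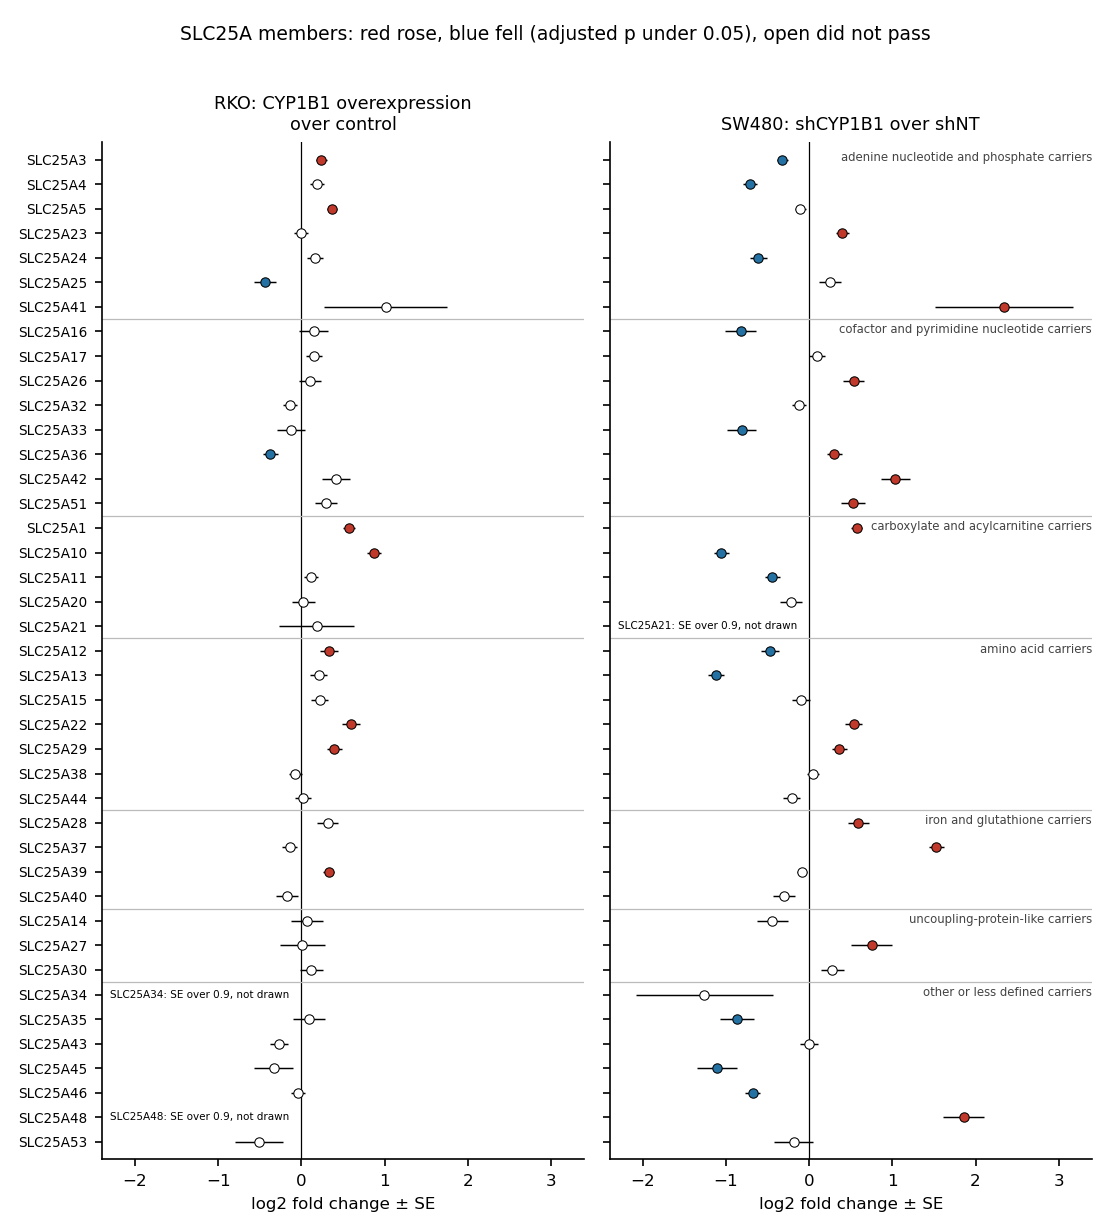
Log2 fold change of 41 of the 42 tested SLC25A members, grouped by substrate, with standard errors from the edgeR fit. The panels show CYP1B1 overexpression over control in RKO (left) and shCYP1B1 over shNT in SW480 (right). SLC25A34 and SLC25A48 in RKO and SLC25A21 in SW480 are named without a point, for their large standard errors (0.940, 1.54 and 1.75). Filled points passed an adjusted p of 0.05: 8 rose and 2 fell in RKO, and 13 of the members drawn rose and 12 fell in SW480.

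By substrate, no group of carriers moved as a whole in both lines. The counts below stand beside 13.8% risers and 13.8% fallers among all tested genes in RKO, and 25.3% and 25.3% in SW480. No group was tested against these shares. The adenine nucleotide and phosphate carriers had 2 risers and 1 faller among 7 tested in RKO (median log2 fold change 0.18), and 2 and 3 in SW480 (median -0.10). The 5 carboxylate and acylcarnitine carriers had 2 risers and 0 fallers in RKO (median 0.18), and 1 and 2 in SW480 (median -0.22). The 7 tested amino acid carriers had 3 risers and 0 fallers in RKO (median 0.22), and 2 of each in SW480 (median -0.10). The 4 iron and glutathione carriers had 1 riser in RKO (median 0.09) and 2 in SW480 (median 0.25), with 0 fallers in both. Of the 9 tested cofactor and pyrimidine carriers, 0 rose and 1 fell in RKO (median 0.10), whereas 5 rose and 2 fell in SW480 (median 0.30). The 3 uncoupling-protein-like carriers had 0 calls in RKO (median 0.07) and 1 riser in SW480 (median 0.28), and the 7 less defined carriers had 0 calls in RKO (median -0.05) and 1 riser and 3 fallers in SW480 (median -0.68).

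Promoter sequence (RefSeq, GRCh38.p14, from 250 bases before to 50 bases after the gene start) was found for 38 of the 46 members. Those with no match included SLC25A2, SLC25A16, SLC25A30, SLC25A32, SLC25A35, SLC25A37 and SLC25A41. Both strands were searched for 4 motifs. The GC box GGGCGG was in 28 of the 38 member promoters (73.7%), where 44.6% of 27305 promoters of the same length held it. The E-box CACGTG was in 6 (15.8%, against 7.43%), the NRF1 core GCGCANGCG in 4 (10.5%, against 8.05%) and TGATGNAA, the core of the amino acid response element, in 1 (2.63%, against 3.67%). All 8 members that rose in RKO had a GC box, as did 1 of the 2 that fell and 17 of the 25 with a promoter that did not pass the test there. The share among all genes that rose in RKO was not counted. In SW480, 9 of 11 that rose, 6 of 10 that fell and 11 of 14 that did not pass held it. These matches describe letters only. The promoters of 2 carriers are shown 5′ to 3′ on the strand of the gene, with bases of GC boxes and E-boxes in capitals. They are SLC25A1, which rose in both lines (chr22:19178687-19178986, minus strand, 8 GC boxes, of which 2 overlap), and SLC25A13, which fell in SW480 (chr7:96322049-96322348, minus strand, 2 GC boxes and 1 E-box). SLC25A1 held the most GC boxes of the 38 member promoters, so it is not a typical member.
SLC25A1: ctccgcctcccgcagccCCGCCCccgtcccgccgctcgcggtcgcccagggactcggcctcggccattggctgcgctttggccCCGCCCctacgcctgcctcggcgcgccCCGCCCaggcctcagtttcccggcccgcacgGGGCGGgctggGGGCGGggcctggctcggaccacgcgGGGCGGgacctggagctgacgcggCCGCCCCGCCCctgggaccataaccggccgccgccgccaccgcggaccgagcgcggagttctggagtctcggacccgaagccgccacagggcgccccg
SLC25A13: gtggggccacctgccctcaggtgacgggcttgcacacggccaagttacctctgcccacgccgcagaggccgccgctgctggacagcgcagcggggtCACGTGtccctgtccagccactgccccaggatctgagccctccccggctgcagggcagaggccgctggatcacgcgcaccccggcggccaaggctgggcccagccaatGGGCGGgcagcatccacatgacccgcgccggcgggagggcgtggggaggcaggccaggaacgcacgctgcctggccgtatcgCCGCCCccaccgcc

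Among the carboxylate and acylcarnitine carriers, the largest change in RKO was in SLC25A10, the dicarboxylate carrier, which exchanges malate or succinate for phosphate. SLC25A10 had 80.04 and 84.0 normalised CPM in RKO overexpression libraries, against 43.7 and 46.0 in RKO controls. It had 28.6 and 32.2 normalised CPM in SW480 shCYP1B1 libraries, against 65.1 and 61.4 in shNT libraries. The groups were far apart in both lines, and the higher group was the one with more CYP1B1 in each (log2 fold change 0.87, SE 0.0871, edgeR adjusted p = 1.04e-04 in RKO; log2 fold change -1.06, SE 0.0888, edgeR adjusted p = 3.55e-06 in SW480). SLC25A1, the citrate carrier that supplies cytosolic citrate for fatty acid synthesis, instead rose in both comparisons. It had 156 and 147 normalised CPM in RKO overexpression libraries, against 104 and 98.9 in RKO controls, and 98.6 and 96.4 normalised CPM in SW480 shCYP1B1 libraries, against 66.5 and 64.9 in shNT libraries. Its log2 fold change was 0.57 in RKO (SE 0.0699, edgeR adjusted p = 2.79e-04) and 0.57 in SW480 (SE 0.0708, edgeR adjusted p = 5.50e-05), with no overlap between groups. Here and below, lack of overlap between 2 and 2 libraries adds little to a call. Members that did not pass also lacked it, such as SLC25A32 in both lines and SLC25A38 in SW480 (log2 fold change 0.04). How often all genes lacked it was not counted. The gene body is at chr22:19175575-19178830 on GRCh38 (GENCODE release 29), and overlaps the promoter shown. SLC25A11, the oxoglutarate carrier of the malate-aspartate shuttle, had 90.9 and 81.1 normalised CPM in RKO overexpression libraries, against 78.9 and 79.4 in RKO controls, a difference that did not pass (log2 fold change 0.12). With shCYP1B1 it fell (61.0 and 54.3 normalised CPM with shCYP1B1, against 79.98 and 76.7 with shNT; log2 fold change -0.44, SE 0.0858, edgeR adjusted p = 0.00127). SLC25A20, the carnitine-acylcarnitine carrier of fatty acid oxidation, passed in neither line: it had 22.8 and 22.03 normalised CPM in RKO overexpression libraries, against 24.2 and 19.9 in RKO controls, which overlapped, and 22.3 and 19.4 normalised CPM in SW480 shCYP1B1 libraries, against 22.7 and 25.8 in shNT libraries, which did not overlap (log2 fold changes 0.02 and -0.22). SLC25A21, the oxodicarboxylate carrier, was barely detected in SW480, with 0 and 1 counts in both groups there, and had 2.84 and 2.84 normalised CPM in RKO overexpression libraries, against 3.05 and 1.96 in RKO controls, which overlapped.

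The 2 aspartate-glutamate carriers, which pass aspartate to the cytosol in the malate-aspartate shuttle, both fell in SW480 with shCYP1B1. SLC25A13 (citrin), at chr7:96120220-96322147, had 61.2 and 57.5 normalised CPM in SW480 shCYP1B1 libraries, against 128 and 129.8 in shNT libraries. SLC25A12 (aralar) had 24.99 and 24.6 normalised CPM in SW480 shCYP1B1 libraries, against 34.9 and 34.1 in shNT libraries. The libraries of each pair of groups were well separated, and the drop was larger for SLC25A13 (log2 fold change -1.12, SE 0.0990, edgeR adjusted p = 4.94e-06) than for SLC25A12 (log2 fold change -0.47, SE 0.108, edgeR adjusted p = 0.00351), a difference in size that was not tested. Citrin thus gave 73.9 and 73.0% of the FPKM of the pair with shCYP1B1, against 80.9 and 81.5% with shNT. In RKO, where citrin gave 62.0 and 63.1% with overexpression and 64.0 and 65.3% in controls, SLC25A12 had 31.1 and 36.9 normalised CPM with overexpression, against 27.1 and 26.9 in controls (log2 fold change 0.33, SE 0.108, edgeR adjusted p = 0.0395). That call was lost in 13 of 18 alternative settings, among them the fits without RKO CYP1B1 replicate 2 (log2 fold change 0.20), without RKO control replicate 1 (0.34) or 2 (0.33), and without each SW480 library in turn (0.34 to 0.35). In RKO, SLC25A13 had 44.0 and 54.8 normalised CPM with overexpression, against 41.8 and 43.8 in controls, and did not pass (log2 fold change 0.21). The 2 overexpression libraries differed in SLC25A13: the value was 0.36 without RKO CYP1B1 replicate 1 and 0.04 without RKO CYP1B1 replicate 2.

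The mitochondrial glutamate carrier and the basic amino acid carrier rose in both lines. SLC25A22, which brings glutamate into the matrix, had 45.3 and 53.6 normalised CPM in RKO overexpression libraries, against 32.2 and 33.4 in RKO controls (log2 fold change 0.59, SE 0.107, edgeR adjusted p = 0.00210). It had 90.1 and 76.2 normalised CPM in SW480 shCYP1B1 libraries, against 58.0 and 56.6 in shNT libraries (log2 fold change 0.54, SE 0.104, edgeR adjusted p = 0.00127). Neither line showed an overlap. In RKO, SLC25A29, a carrier of lysine and arginine, had 47.6 and 44.8 normalised CPM with overexpression, against 33.4 and 36.9 in controls (log2 fold change 0.39, SE 0.0905, edgeR adjusted p = 0.00781). In SW480 it had 73.3 and 69.8 normalised CPM with shCYP1B1, against 53.3 and 58.1 with shNT (log2 fold change 0.36, SE 0.0885, edgeR adjusted p = 0.00536). These groups were also separate, but the SLC25A29 call was lost without RKO control replicate 1 (log2 fold change 0.32) and without SW480 shNT replicate 1 (0.31). SLC25A15, the ornithine carrier of the urea cycle, SLC25A38, a glycine carrier that serves haem synthesis, and SLC25A44, a carrier of branched-chain amino acids, passed in neither line, with log2 fold changes of 0.22, -0.07 and 0.02 in RKO and -0.10, 0.04 and -0.21 in SW480. SLC25A18, the second glutamate carrier, gave at most 0.288% of the FPKM of the SLC25A18 and SLC25A22 pair in any library.

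**Figure D3:**
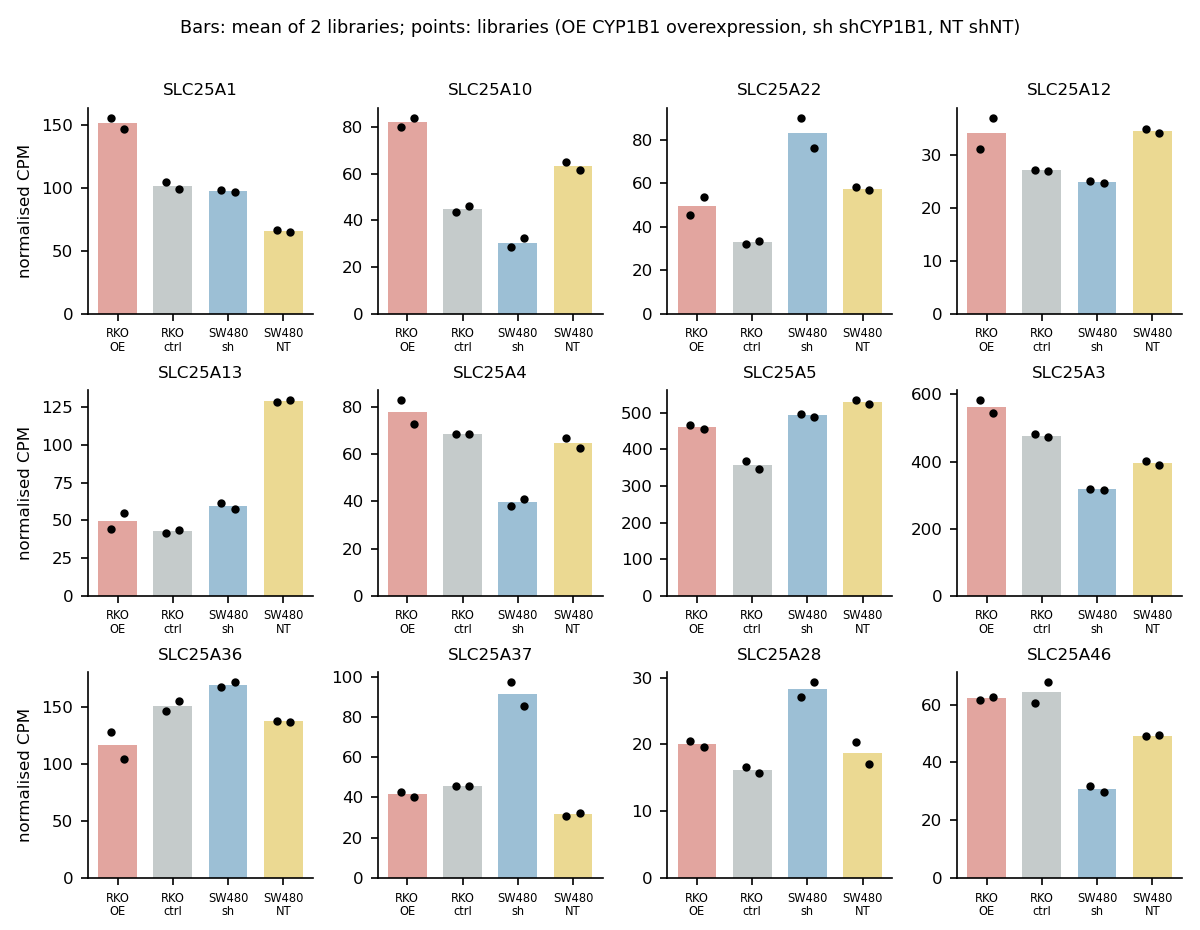
Normalised CPM of 12 SLC25A members, each panel with its own axis from 0; bars are the mean of the 2 libraries and points are the libraries. SLC25A10 is higher in the CYP1B1-high group of each line, SLC25A1 and SLC25A22 are higher with overexpression and with shCYP1B1, and SLC25A37 stands out in the shCYP1B1 libraries.

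The carriers that serve ATP synthesis shifted modestly in RKO. SLC25A5 had 467 and 455 normalised CPM in RKO overexpression libraries, against 368 and 348 in RKO controls (log2 fold change 0.37, SE 0.0620, edgeR adjusted p = 0.00151). SLC25A3 had 584 and 544 normalised CPM in RKO overexpression libraries, against 482 and 472 in RKO controls (log2 fold change 0.24, SE 0.0638, edgeR adjusted p = 0.0159). Both were higher with overexpression with no overlap, but the SLC25A3 call was lost without RKO control replicate 1 (log2 fold change 0.26), without RKO control replicate 2 (0.23) and in the fit of RKO alone (0.25). SLC25A4, the ADP/ATP carrier typical of heart and muscle, had 83.0 and 72.9 normalised CPM with overexpression, against 68.7 and 68.4 in controls. It did not pass (log2 fold change 0.18). The value was 0.09 without RKO CYP1B1 replicate 1 and 0.28 without RKO CYP1B1 replicate 2. In SW480, SLC25A3 had 319 and 315 normalised CPM with shCYP1B1, against 403 and 389 with shNT (log2 fold change -0.32, SE 0.0640, edgeR adjusted p = 0.00151). SLC25A4 had 38.1 and 40.98 normalised CPM with shCYP1B1, against 66.9 and 62.7 with shNT (log2 fold change -0.71, SE 0.0884, edgeR adjusted p = 5.42e-05). Both fell without overlap. SLC25A5 had 496 and 489.9 normalised CPM with shCYP1B1, against 535 and 525 with shNT, and did not pass (log2 fold change -0.10, edgeR adjusted p = 0.180). Its value was -0.11 when either RKO overexpression library was left out. It passed in the fit of SW480 alone (-0.10) and in the 3 limma fits on FPKM (-0.15). Of the summed FPKM of SLC25A4, SLC25A5 and SLC25A6, SLC25A5 gave 94.99 and 95.5% with overexpression and 94.8 and 94.5% in RKO controls. In SW480 it gave 97.8 and 97.6% with shCYP1B1 and 96.4 and 96.6% with shNT. SLC25A6, the third ADP/ATP carrier, had at most 6 counts in any library. A second entry of the table with the same gene number, named SLC25A6-2 and not a member by the rule, had 20.4 and 19.1 normalised CPM in RKO overexpression libraries, against 25.7 and 24.0 in RKO controls, and 8.52 and 13.8 normalised CPM in SW480 shCYP1B1 libraries, against 3.63 and 75.5 in shNT libraries. Its 2 shNT libraries lay on either side of every other library, so the level of this carrier is uncertain.

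The calcium-regulated ATP-Mg/phosphate carriers, which adjust the adenine nucleotide pool of the matrix, split in both directions. SLC25A25 fell in RKO, where it had 57.0 and 41.5 normalised CPM with overexpression, against 64.2 and 68.9 in controls (log2 fold change -0.44, SE 0.129, edgeR adjusted p = 0.0271). The 2 overexpression libraries were both under the controls but far from each other, and the call was lost without RKO CYP1B1 replicate 2 (log2 fold change -0.22), without RKO control replicate 1 (-0.48) and without RKO control replicate 2 (-0.38), in the fit of RKO alone (-0.43) and in 2 of 3 limma fits on FPKM (-0.47 and -0.43). Without RKO CYP1B1 replicate 1 it was -0.68. In SW480, SLC25A23 rose (166 and 174 normalised CPM with shCYP1B1, against 125 and 132 with shNT; log2 fold change 0.40, SE 0.0805, edgeR adjusted p = 0.00158). SLC25A24 fell there (35.5 and 32.1 normalised CPM with shCYP1B1, against 51.1 and 52.1 with shNT; log2 fold change -0.61, SE 0.101, edgeR adjusted p = 4.39e-04). SLC25A23, the member of this set with the most signal, gave 75.3 and 76.6% of the set's FPKM with shCYP1B1, against 66.2 and 66.8% with shNT, and SLC25A24 gave 14.7 and 12.8%, against 24.6 and 23.9%. SLC25A41 passed in SW480 on few counts, 15 and 49 with shCYP1B1 and 6 and 7 with shNT (log2 fold change 2.34, SE 0.833). The value was 1.28 without SW480 shCYP1B1 replicate 2, 2.24 without SW480 shNT replicate 1 and 2.46 without SW480 shNT replicate 2, and no longer passed in these 3 fits or in the 3 limma fits on FPKM (0.45 to 1.46).

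The smallest p-value of any member in SW480 was that of mitoferrin 1, which rose with shCYP1B1. SLC25A37, which imports iron into mitochondria and is best known from erythroid cells, had 97.3 and 85.3 normalised CPM in SW480 shCYP1B1 libraries, against 31.01 and 32.4 in shNT libraries. Both shCYP1B1 libraries were far above both shNT libraries (log2 fold change 1.53, SE 0.0903, edgeR adjusted p = 3.73e-07, or 2.88-fold). SLC25A28, mitoferrin 2, the widely expressed paralogue, had 27.1 and 29.3 normalised CPM in SW480 shCYP1B1 libraries, against 20.4 and 17.1 in shNT libraries and also rose (log2 fold change 0.59, SE 0.125, edgeR adjusted p = 0.00214). SLC25A37 gave 87.2 and 84.7% of the mitoferrin FPKM with shCYP1B1, against 74.4 and 78.3% with shNT. In RKO, SLC25A37 had 42.5 and 40.4 normalised CPM with overexpression, against 45.9 and 45.6 in controls. SLC25A28 had 20.6 and 19.7 normalised CPM with overexpression, against 16.6 and 15.8 in controls. Neither passed the test (log2 fold changes -0.14 and 0.31), and the groups were close but did not overlap. Of the glutathione carriers, SLC25A39 rose in RKO (378 and 361 normalised CPM with overexpression, against 295 and 294 in controls; log2 fold change 0.33, SE 0.0646, edgeR adjusted p = 0.00350) and did not pass in SW480 (293 and 302 normalised CPM with shCYP1B1, against 325 and 307 with shNT; log2 fold change -0.09), except in the fit of SW480 alone (-0.09). Its paralogue SLC25A40 passed in neither line (-0.17 in RKO and -0.30 in SW480) and gave 2.34% to 3.74% of the FPKM of the pair in all libraries.

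**Figure D4:**
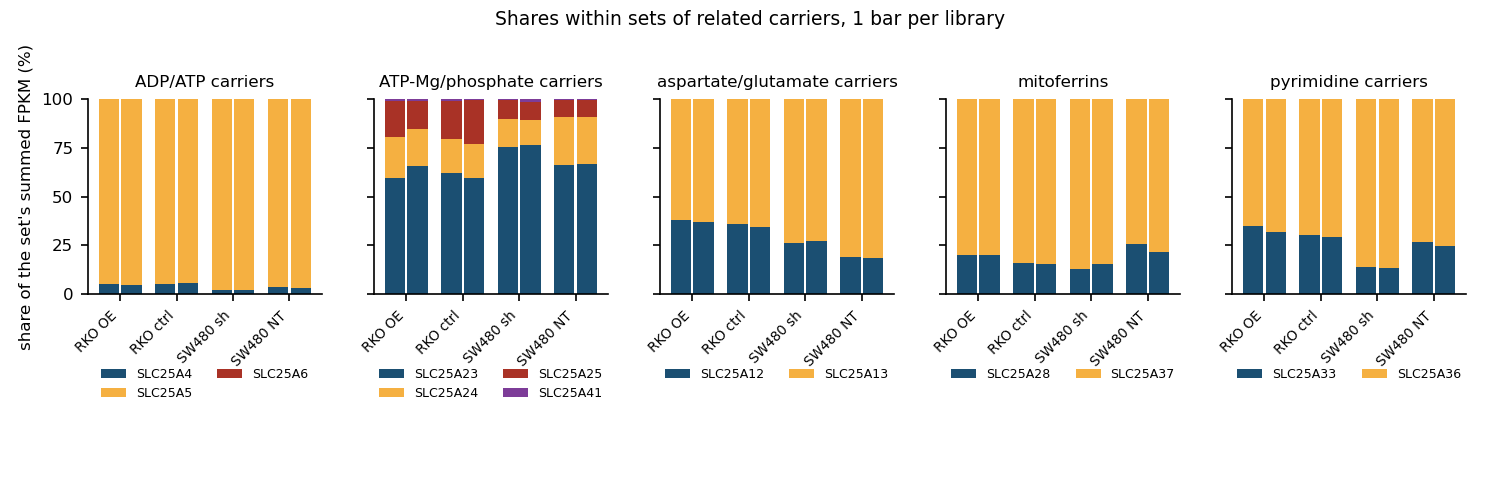
Share of the summed FPKM that each carrier took within 5 sets of related members, with 1 bar per library and 2 bars per group. SLC25A5 took over 94% of the ADP/ATP set in every library, a set that leaves out the second SLC25A6 entry, SLC25A6-2. SLC25A13 and SLC25A33 took smaller shares of their pairs with shCYP1B1 than with shNT, while SLC25A37 took a larger share with shCYP1B1.

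Among the cofactor carriers, both members linked to coenzyme A changed in SW480, in opposite directions. SLC25A42, which brings coenzyme A into mitochondria, had 18.1 and 16.2 normalised CPM in SW480 shCYP1B1 libraries, against 7.70 and 9.04 in shNT libraries (log2 fold change 1.04, SE 0.171, edgeR adjusted p = 4.29e-04). SLC25A16, which is also linked to matrix coenzyme A, had 4.25 and 3.49 normalised CPM in SW480 shCYP1B1 libraries, against 7.12 and 6.58 in shNT libraries (log2 fold change -0.82, SE 0.186, edgeR adjusted p = 0.00323). In each case the groups were separate, and the SLC25A16 value was -0.34, still called, with limma on log2(FPKM + 1). SLC25A51, the NAD+ carrier, had 11.6 and 12.4 normalised CPM in SW480 shCYP1B1 libraries, against 8.48 and 8.201 in shNT libraries (log2 fold change 0.53, SE 0.139, edgeR adjusted p = 0.00813), and the call was lost without SW480 shCYP1B1 replicate 2 (log2 fold change 0.49) and without SW480 shNT replicate 2 (0.51). SLC25A26, the S-adenosylmethionine carrier, had 25.8 and 23.3 normalised CPM in SW480 shCYP1B1 libraries, against 16.2 and 17.8 in shNT libraries (log2 fold change 0.53, SE 0.130, edgeR adjusted p = 0.00519). Both had separate groups in SW480, and in RKO their log2 fold changes of 0.30 and 0.10 did not pass; SLC25A51 did so in the 3 limma fits on FPKM (0.26 to 0.28). SLC25A32, the folate and FAD carrier, had 75.6 and 71.4 normalised CPM in RKO overexpression libraries, against 81.6 and 79.98 in RKO controls, and 29.03 and 31.5 normalised CPM in SW480 shCYP1B1 libraries, against 33.4 and 32.2 in shNT libraries. It passed in neither line (log2 fold changes -0.14 and -0.12), nor did SLC25A17, the peroxisomal member of the family (0.15 and 0.09).

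The 2 pyrimidine nucleotide carriers moved apart in SW480. SLC25A36 rose there (167 and 171 normalised CPM with shCYP1B1, against 138 and 137 with shNT; log2 fold change 0.30, SE 0.0900, edgeR adjusted p = 0.0152) while SLC25A33 fell (8.16 and 7.998 normalised CPM with shCYP1B1, against 14.9 and 13.5 with shNT; log2 fold change -0.81, SE 0.174, edgeR adjusted p = 0.00237). SLC25A33 gave 14.1 and 13.6% of the FPKM of the pair with shCYP1B1, against 26.7 and 24.9% with shNT. In RKO, SLC25A36 fell: it had 128 and 105 normalised CPM with overexpression, against 146 and 155 in controls (log2 fold change -0.37, SE 0.0903, edgeR adjusted p = 0.0102). SLC25A36 was thus lower in the CYP1B1-high group of each line. The SW480 call for SLC25A36 was lost when any SW480 library was left out (log2 fold changes 0.29 to 0.33) and in the 3 limma fits on FPKM (0.25 to 0.26), and the RKO call without RKO control replicate 2 (-0.33) and in the fit of RKO alone (-0.36). The RKO value was -0.53 without RKO CYP1B1 replicate 1 and -0.23 without RKO CYP1B1 replicate 2. In RKO, SLC25A33 had 20.4 and 14.4 normalised CPM with overexpression, against 18.7 and 19.1 in controls, where the groups overlapped (log2 fold change -0.12).

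Among members over 1 FPKM in a group, the largest fold change in SW480 was in SLC25A48, which has been linked to mitochondrial choline uptake. It had 14.3 and 14.6 normalised CPM in SW480 shCYP1B1 libraries, against 4.04 and 3.94 in shNT libraries (log2 fold change 1.86, SE 0.249, edgeR adjusted p = 9.56e-05), and 1 count or none in each RKO library. SLC25A46, an outer-membrane member that acts in mitochondrial fusion and fission, had 31.7 and 29.8 normalised CPM in SW480 shCYP1B1 libraries, against 49.2 and 49.4 in shNT libraries (log2 fold change -0.68, SE 0.0872, edgeR adjusted p = 6.80e-05). In both cases all shCYP1B1 libraries lay on 1 side of all shNT libraries. SLC25A45 had 3.15 and 3.07 normalised CPM with shCYP1B1, against 6.95 and 6.46 with shNT (log2 fold change -1.11, SE 0.237, edgeR adjusted p = 0.00230), and SLC25A35 had 4.83 and 5.32 normalised CPM with shCYP1B1, against 10.5 and 7.999 with shNT (log2 fold change -0.87, SE 0.201, edgeR adjusted p = 0.00386). Both fell without overlap, and the SLC25A35 call was lost without SW480 shNT replicate 1 (log2 fold change -0.65). SLC25A27, also called UCP4, rose (17.8 and 21.6 normalised CPM with shCYP1B1, against 10.99 and 12.5 with shNT; log2 fold change 0.75, SE 0.251, edgeR adjusted p = 0.0267), but not without SW480 shCYP1B1 replicate 2 (0.61), SW480 shNT replicate 1 (0.67) or SW480 shNT replicate 2 (0.85), and not in 2 of 3 limma fits on FPKM (0.69 and 0.59). SLC25A14 and SLC25A30, the other two uncoupling-protein-like members, passed in neither line, with log2 fold changes between -0.44 and 0.28. None of the 7 tested members in the less defined set passed in RKO, nor did SLC25A34, SLC25A43 and SLC25A53 in SW480. The SW480 count ranged from 21 to 31 over the fits that each left out 1 library, while the share of all genes called ranged from 35.0% to 60.2%.

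Set side by side, 7 members passed the test in both lines. Of all tested genes, 27.6% passed in RKO and 50.6% in SW480, and how many passed in both was not counted. Whether 7 members, or the same-way and opposite-way groups below, exceed that background therefore cannot be said. Alternative settings lost the calls of SLC25A3 and SLC25A12 in RKO, and of SLC25A29 and SLC25A36 in each line, at least once. SLC25A1, SLC25A22 and SLC25A29 rose in both comparisons, whereas SLC25A10, SLC25A3 and SLC25A12 rose with overexpression and fell with shCYP1B1, and SLC25A36 did the reverse of these 3. Of the rest, 2 rose in RKO without passing in SW480 (SLC25A5 and SLC25A39), 1 fell in RKO without passing in SW480 (SLC25A25), 10 rose and 9 fell in SW480 without passing in RKO, and 13 passed in neither. CYP1B1 itself changed by unlike amounts, with log2 fold changes of 9.42 in RKO and -2.44 in SW480. The CYP1B1-high group of SW480, shNT, had only 50 and 76 CYP1B1 counts. The difference between the lines in the effect of more CYP1B1 was itself tested. It was taken as overexpression minus control in RKO less shNT minus shCYP1B1 in SW480. It was above 0 for 11 members and below 0 for 8, or 26.2% and 19.0%, against 21.0% and 21.6% of all tested genes. Scaling by library size only gave 10 above and 11 below, RLE scaling gave 13 and 7, and DESeq2 gave 12 and 7. The share of all genes called was 42.4%, 42.5% and 42.7% in turn. The smallest p-values were those of SLC25A1 (difference 1.14 on the log2 scale, SE 0.0996, edgeR adjusted p = 9.92e-06), SLC25A37 (1.39, SE 0.126, edgeR adjusted p = 1.29e-05), SLC25A22 (1.13, SE 0.149, edgeR adjusted p = 1.33e-04), SLC25A13 (-0.91, SE 0.141, edgeR adjusted p = 3.84e-04) and SLC25A46 (-0.73, SE 0.122, edgeR adjusted p = 6.55e-04). For the 3 members that were higher in the CYP1B1-high group of both lines, and for SLC25A36, which was lower in it, the difference did not pass: -0.19 ± 0.124 for SLC25A10, -0.08 ± 0.0903 for SLC25A3, -0.14 ± 0.153 for SLC25A12 and -0.07 ± 0.127 for SLC25A36 (log2, SE). The count of 19 was 12 without SW480 shNT replicate 1 and ranged from 12 to 25 over all fits that left out 1 library, while the share of all genes called ranged from 31.6% to 49.1%.

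The 2 control groups, which differ in line and in control vector and are shared with the comparisons above, differed in 24 of the 42 tested carriers. In SW480 shNT libraries 10 members were higher and 14 lower than in RKO controls, or 23.8% and 33.3%, against 41.2% and 35.6% of all tested genes. SLC25A48 had 140 and 136 counts in shNT libraries, against 0 and 1 in RKO controls, a ratio of 265 per normalised library (exact 95% interval 47.1 to 10500.0, counting error only). SLC25A21 showed the opposite, with 0 and 1 counts in shNT libraries, against 98 and 67 in RKO controls, a ratio of 0.00581 (exact 95% interval 1.46e-04 to 0.0328). These 2 carriers were thus detected almost entirely in 1 line each. SLC25A13 was higher in SW480 shNT (log2 fold change 1.59, SE 0.101, edgeR adjusted p = 3.90e-08), as were SLC25A53 (2.20), SLC25A27 (0.96) and SLC25A22 (0.81). Lower in SW480 shNT were SLC25A25 (-1.70), SLC25A32 (log2 fold change -1.30, SE 0.0830, edgeR adjusted p = 4.20e-08), SLC25A51 (-0.80), SLC25A38 (-0.71), SLC25A1 (-0.63) and SLC25A37 (-0.53). SLC25A4 (-0.08), SLC25A11 (-0.01), SLC25A20 (0.14), SLC25A28 (0.21) and SLC25A39 (0.10) did not pass between the lines.

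Genes that act with the carriers were taken from lists fixed by textbook role. Among all tested genes, 13.8% rose and 13.8% fell in RKO, and 25.3% rose and 25.3% fell in SW480. No list was tested against these shares. Of 15 genes of the carrier import route, 7 rose and 0 fell in RKO (median log2 fold change 0.12), and 4 rose and 9 fell in SW480 (median -0.33). In RKO the smallest p-values were those of the TOM subunits TOMM5 (log2 fold change 0.43), TOMM6 (0.38) and TOMM40 (0.48), the last of which forms the import pore. In SW480 they were those of the receptor TOMM20, which rose (0.87), and of AGK, a TIM22 subunit, and TOMM22, which fell (-0.82 and -0.56). TOMM5, TOMM22, TOMM40 and TIMM13 rose in RKO and fell in SW480, the pattern of SLC25A10 and SLC25A3; they were picked for naming here after their values were seen. Of 16 other mitochondrial transporters, 5 rose and 1 fell in RKO (median 0.18), led by the outer-membrane channels VDAC3 (0.58) and VDAC1 (0.45) and the sideroflexin SFXN3 (0.41). In SW480 6 of them rose and 6 fell (median -0.15), led by CPT1A (-1.04), the entry step of fatty acid oxidation, SFXN2 (-2.38) and SFXN3 (0.63).

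For the enzymes around the carriers, the median log2 fold changes in RKO and then in SW480 were 0.07 and -0.01 for the malate-aspartate shuttle enzymes, 0.10 and 0.05 for the iron-sulphur and haem enzymes, -0.41 and -0.31 for the mitochondrial folate enzymes, 0.055 and 0.10 for the enzymes of citrate, and 0.11 and -0.31 for the relatives under other symbols. The counts that follow stand beside the same shares of all tested genes, 13.8% each way in RKO and 25.3% each way in SW480. Of the 4 malate-aspartate shuttle enzymes, GOT1, the cytosolic aspartate aminotransferase, fell and MDH1, the cytosolic malate dehydrogenase, rose in RKO. GOT1 had 98.4 and 73.6 normalised CPM in RKO overexpression libraries, against 192 and 188 in RKO controls (log2 fold change -1.14, SE 0.112, edgeR adjusted p = 9.36e-05), with separate groups. In SW480, MDH2 rose (log2 fold change 0.24) and MDH1 (-0.29) and GOT2 (-0.24) fell. Of 10 iron-sulphur and haem enzymes, 3 rose in RKO, CPOX (0.55), GLRX5 (0.37) and NFS1 (0.32). In SW480, beside the mitoferrins, 4 rose and 2 fell. FECH, ferrochelatase, which inserts iron into haem, had 7.42 and 8.30 normalised CPM in SW480 shCYP1B1 libraries, against 18.7 and 21.9 in shNT libraries (log2 fold change -1.37, SE 0.127, edgeR adjusted p = 6.78e-06). ALAS1, the first enzyme of haem synthesis outside erythroid cells, and the cysteine desulphurase NFS1 rose (log2 fold changes 0.82 and 0.60). Of 5 mitochondrial folate enzymes, 3 fell in RKO, MTHFD2 (-0.73), MTHFD1L (-0.41) and SHMT2 (-0.30), while 1 rose and 3 fell in SW480, where MTHFD2 was the riser (0.62) and MTHFD1L (-0.45) and SHMT2 (-0.31) fell. Of 6 enzymes that make or use citrate, IDH1 fell in RKO (-0.28), and in SW480 ACLY (-0.32) and OGDH (-0.33) fell and IDH1 rose (0.29). Among 4 tested relatives under other symbols, MTCH2, an outer-membrane insertase of the carrier fold, rose in RKO (0.30) and fell in SW480 (-0.85), where MTCH1 rose (0.48).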

How the data were processed

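The authors deposited raw read counts per gene and FPKM for the same genes and 8 libraries. Per the submitters' processing notes the build was GRCh38.p13; for the aligner, counting tool, annotation and use of strand, the answer is not given in the sources used here, so overlapping genes and near-identical copies (the SLC25A6 entries, SLC25A51 and SLC25A52) are uncertain. Per the labels' protocols, the kit marks strand and selects mRNA from total RNA. The deposited FPKM equals the count over a gene length and the library's total count. It was used for levels, with no test, and in the limma alternatives below.

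The main tests start from the counts. After filterByExpr by group (minimum count 10, minimum total 15), 14157 of 16829 genes were scaled with TMM and fitted with edgeR 4.0.16 quasi-likelihood models (R 4.3.3), 1 coefficient per group, over all 8 libraries on 4 residual degrees of freedom. P-values were Benjamini-Hochberg adjusted over all tested genes, with a threshold of 0.05, and SE is the log2 fold change over the square root of F. An exact permutation of 2 against 2 libraries cannot go below 0.333. Fits that leave 1 library in a group take its spread from the remaining groups. Without an RKO overexpression library, they lack the spread of the group whose libraries stood furthest apart, so passing there adds no support to a call. Alternatives were other scalings, filters, DESeq2 1.42.0, limma 3.58.1 on log2(FPKM + 1) or log2(FPKM + 0.1), each line alone, a replicate block, and each library left out.

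The members, substrate groups and lists were chosen with earlier results of these data known. Library values are given for up to 8 called members each way with the largest fold change in each line, over 1 FPKM in a group mean, for 16 fixed members and for the 5 smallest p-values of the line difference; of other lists, up to 3 called genes with the smallest p are named, and further names were added after their values were seen. The steps were tested on simulated data. Same-numbered replicates deviated with correlations of -0.0688 in RKO and -0.0113 in SW480, so numbers were not taken as pairs. The values of 1 member, which stays in the counts and medians, and 1 promoter sequence are not reported here.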

Additional observations from a re-analysis of the deposited data

Results flagged for a closer look

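For 19 members the effect of more CYP1B1 differed between the lines by a test of the difference itself (edgeR, adjusted p under 0.05). They were 45.2% of the tested members, against 42.6% of all tested genes, so the count is near the background. The difference, RKO overexpression minus control less SW480 shNT minus shCYP1B1 on the log2 scale, was above 0 with 1.14 for SLC25A1, 1.39 for SLC25A37, 1.13 for SLC25A22, 0.76 for SLC25A29, 1.45 for SLC25A42, 0.91 for SLC25A28, 0.82 for SLC25A51, 0.39 for SLC25A23, 0.63 for SLC25A26, 3.35 for SLC25A41 and 0.26 for SLC25A5. It was below 0 with -0.91 for SLC25A13, -0.73 for SLC25A46, -1.44 for SLC25A45, -0.53 for SLC25A4, -0.93 for SLC25A33, -0.45 for SLC25A24, -0.77 for SLC25A35 and -0.68 for SLC25A16. SLC25A1, SLC25A22 and SLC25A29 rose with overexpression and with shCYP1B1, so their effects of more CYP1B1 had opposite signs. The other carriers with a positive difference passed in 1 line at most by themselves, as did those with a negative difference. In the fits that each left out 1 library, the calls for SLC25A5, SLC25A16, SLC25A23, SLC25A24, SLC25A26, SLC25A35 and SLC25A41 were lost at least once. SLC25A5 no longer passed without RKO control replicate 2 or any SW480 library (0.22 to 0.30), and SLC25A16 without any library but RKO CYP1B1 replicate 1 (-0.81 to -0.52). The SLC25A16 call was lost in 14 of 17 alternatives in all, among them RLE scaling, testing all genes unfiltered, the stricter filter at 1 CPM, DESeq2, the replicate block (-0.68 to -0.66) and 2 of 3 limma fits on FPKM (-0.26). That of SLC25A5 was also lost with library size only (0.20) and with the replicate block (0.26), that of SLC25A35 with the replicate block (-0.77) and in 1 limma fit (-0.51), and that of SLC25A41 in 1 limma fit (0.79). SLC25A23 was lost without RKO control replicate 2, SW480 shCYP1B1 replicate 2 or SW480 shNT replicate 1 (0.30 to 0.38). SLC25A26 was lost without RKO control replicate 1, SW480 shCYP1B1 replicate 1 or SW480 shNT replicate 1 (0.54 to 0.58). SLC25A24 was lost without RKO control replicate 1, SW480 shCYP1B1 replicate 2 or either shNT library (-0.44 to -0.35). SLC25A35 was lost without RKO CYP1B1 replicate 2, either RKO control, either shCYP1B1 library or SW480 shNT replicate 1 (-0.82 to -0.54). SLC25A41, which rests on few counts, was lost without RKO control replicate 2, SW480 shCYP1B1 replicate 2 or either shNT library (2.30 to 3.48). The 2 lines also differ in the kind of manipulation and in its size, with CYP1B1 log2 fold changes of 9.42 in RKO and -2.44 in SW480. Line, kind of manipulation and its size cannot be told apart.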

How the results depend on the processing

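The number of members that passed was 10 in RKO, 26 in SW480, 19 for the line difference and 24 between the controls. These were 23.8%, 61.9%, 45.2% and 57.1% of tested members, against 27.6%, 50.6%, 42.6% and 76.8% of all tested genes. Fitting each line alone gave 6 in RKO (15% of members, against 19.0% of all genes) and 32 in SW480, 15 up and 17 down (78.0%, against 65.5%), with SLC25A5 and SLC25A39 among those gained, and the cause was not tested. Leaving out each library in turn gave 6 to 14 in RKO, 21 to 31 in SW480, 12 to 25 for the line difference and 22 to 26 between the controls, while the share of all genes called ranged alike, from 12.3% to 38.7%, 35.0% to 60.2%, 31.6% to 49.1% and 67% to 80.5%. The low values were without RKO control replicate 1 (6) and replicate 2 (6) in RKO, and without SW480 shNT replicate 1 (12) for the line difference. Taking the replicate number as a block gave 9, 26, 16 and 24, without a pairing known from the design. Of the members called, 5 of 10 in RKO (SLC25A1, SLC25A5, SLC25A10, SLC25A22 and SLC25A39), 20 of 26 in SW480, 12 of 19 for the line difference and 21 of 24 between the controls passed under every alternative run. Between the controls, the SLC25A12 call was lost without RKO control replicate 2 and without SW480 shNT replicate 1, and the calls of SLC25A33 and SLC25A34 under several settings. SLC25A20 changed sign in RKO without RKO control replicate 2 (-0.11, against 0.02) and was 0.17 without RKO control replicate 1, passing in none of these fits. The line difference and the comparison of controls could not be fitted in each line alone. Depth limits SLC25A2, SLC25A6, SLC25A18 and SLC25A52, which were not tested, and SLC25A34 and SLC25A41, which rest on few counts.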
